A study of Mus musculus with 52 samples.

Results

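Astrocyte identity genes are genes that mature astrocytes transcribe strongly and that other brain cells transcribe little. The 10 genes described here were chosen by name: Slc1a2, Slc1a3, Gja1, Gjb6, Aqp4, Atp1b2, Slc4a4, Aldoc, Ntsr2 and Sox9. All 10 were among the 15692 genes of the count table, and all 10 were among the 15195 genes that passed a filter on low counts. RNA came from the frontal cortex of 52 mice, with 1 library per animal. Every mouse carried the APP/PS1ΔE9 transgenes, which drive amyloid plaque formation, and was homozygous for human APOE put in place of the mouse gene by targeted replacement. Mice with APOE3 are called APP/E3 and mice with APOE4 are called APP/E4. Both genotypes and both genders (M and F in the labels) were fed either normal diet (ND) or a high-fat Western diet (HFD) with 40% of calories from fat, 42.6% from carbohydrate and 16.8% from protein. In APP/E3, 6 males received ND and 6 received HFD, and 7 females received ND and 8 received HFD. In APP/E4, 6 males received ND and 5 received HFD, and 7 females were on each diet. No mouse without the transgenes and none with mouse Apoe was analysed here. Feeding lasted 3 months and began when the mice were on average 3.5 months old. Behaviour was assessed when they averaged 14.7 months. The labels do not say how the 2 ages fit together or how old any animal was at dissection.

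Astrocytes clear glutamate from the synaptic cleft, buffer potassium and bicarbonate, move water at the vessel wall and share small molecules through gap junctions. Around amyloid plaques they can take up a reactive state, marked by Gfap and by secreted immune proteins, while their transporter and channel genes may be kept, lost or raised. In whole tissue, fewer cells of a type and less RNA per cell cannot be told apart, and that holds for every level given below. Slc1a2 and Slc1a3 encode the main astrocytic glutamate transporters. Gja1 and Gjb6 encode the connexins of astrocytic gap junctions. Aqp4 encodes the water channel of the endfoot, the process that astrocytes wrap around vessels. Atp1b2 encodes a beta subunit of the sodium pump, and Slc4a4 a sodium bicarbonate cotransporter. Aldoc encodes a brain form of the glycolytic enzyme aldolase, Ntsr2 a neurotensin receptor, and Sox9 a transcription factor that specifies glia.

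Promoter sequence is shown for the 2 pairs of these genes whose levels moved together most closely from animal to animal among the genes with an entry, Slc1a3 with Gja1 and Aldoc with Gjb6. RefSeq entries on the mouse build GRCm38.p6 were found for 7 of the 10 genes in 9 windows. Each window runs from 250 bases before to 50 bases after an annotated start, and is written 5′ to 3′ on the gene's strand. Capitals mark matches to any of 8 motifs searched on both strands. They were ACAATG and ACAAAG (letters bound by SOX factors), TTGGC (part of the NFI site), GGGCGG (the GC box), TATAAA (the TATA box), GGAATG (TEAD factors), CAGCTG (an E-box) and TGANTCA (AP-1 factors). The motifs do not overlap one another in the 4 windows shown.
Slc1a3, chr15:8710758-8711057, minus strand: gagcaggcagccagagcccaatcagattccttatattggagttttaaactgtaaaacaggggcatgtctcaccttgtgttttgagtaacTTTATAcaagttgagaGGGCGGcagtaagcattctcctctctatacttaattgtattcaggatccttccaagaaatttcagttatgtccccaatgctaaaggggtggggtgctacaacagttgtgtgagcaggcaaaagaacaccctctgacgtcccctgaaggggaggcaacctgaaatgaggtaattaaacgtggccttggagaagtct
Gja1, chr10:56377050-56377349, plus strand: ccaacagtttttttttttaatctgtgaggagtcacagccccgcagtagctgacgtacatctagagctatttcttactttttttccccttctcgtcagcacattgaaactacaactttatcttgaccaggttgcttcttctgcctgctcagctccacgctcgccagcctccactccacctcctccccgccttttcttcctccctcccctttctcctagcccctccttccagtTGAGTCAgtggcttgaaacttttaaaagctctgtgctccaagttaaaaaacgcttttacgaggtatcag
Aldoc, chr11:78322823-78323122, plus strand: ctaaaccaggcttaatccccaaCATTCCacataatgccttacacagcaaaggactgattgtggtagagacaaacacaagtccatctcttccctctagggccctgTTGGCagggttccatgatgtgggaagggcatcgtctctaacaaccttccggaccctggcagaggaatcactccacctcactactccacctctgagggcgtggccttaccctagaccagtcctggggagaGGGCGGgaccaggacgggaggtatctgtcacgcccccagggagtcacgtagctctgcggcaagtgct
Gjb6, chr14:57133562-57133861, minus strand: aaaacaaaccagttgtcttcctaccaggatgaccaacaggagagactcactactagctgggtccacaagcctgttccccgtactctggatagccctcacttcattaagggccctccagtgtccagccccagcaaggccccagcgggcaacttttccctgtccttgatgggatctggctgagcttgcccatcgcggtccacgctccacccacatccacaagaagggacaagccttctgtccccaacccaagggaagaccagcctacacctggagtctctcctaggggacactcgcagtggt

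The Slc1a3 window held the letters of the TATA box on the opposite strand only, with the match starting 161 bases before the start. It also held a GC box, 145 bases before the start. Across all 32851 windows of this length in the table, 13.6% held the TATA box letters on either strand and 35.7% those of the GC box. The Gja1 window held 1 AP-1 match, 19 bases before the start, a motif found in 7.81% of windows. Aldoc has 2 windows in the table. The one shown held a GC box 17 bases, an NFI match 146 bases and a TEAD match 228 bases before the start, and NFI and TEAD letters were found in 46.7% and 14.7% of windows. The other Aldoc window held none of the 8 motifs. None of the 8 was in the Gjb6 window, and the E-box, found in 16.3% of windows, was in none of these 4. The 2 SOX motifs, in 12.6% (ACAATG) and 18.7% (ACAAAG) of all windows, were in none of the 9 windows, which says only that these letters were not there. A run of 40 bases downstream of the start was found in a GENCODE transcript of the same gene for Aldoc and Gjb6 and not for Slc1a3 and Gja1.

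Total counts per library were between 5.34 and 13.1 M, except for 1 APP/E3 ND male at 39.4 M. The 10 genes were read deeply. Slc1a2 had between 21395 and 153039 counts per library, and Sox9, the least counted, had between 145 and 1507. Levels below are in CPM, the counts per 1 M of a library's total after a between-library correction (TMM). The 11 neuronal markers summed to between 11370 and 16350 CPM in every library, which shows neurons but not which brain region was taken. No gene of the marker lists for neurons, oligodendrocytes, microglia or endothelium was at 0 in every library. These genes had passed the filter on low counts, so that could not have come out otherwise. Markers of neighbouring tissue varied more, with the sum of 7 striatal genes between 169.5 and 2472 CPM in females and between 176.3 and 2077 in males. Libraries stood apart in 2 ways that the groups do not name. In 11 female libraries Csl, a citrate synthase-like gene, was at 0.094 to 1.15 CPM against 10.7 to 18.2 CPM in the other 41, and these 11 are called low Csl libraries. Among APP/E3 females they made up 2 of the 7 on ND and 5 of the 8 on HFD, and among APP/E4 females 2 of the 7 on each diet. In addition, the titles of 14 of the 23 males lack the gender letter that those of the other 9 males and of all 29 females carry. Calls between genders and between genotypes are given with and without these libraries.

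Levels can be compared between genes only per length, so CPM were divided by the kilobases of exon in each gene. Slc1a2 was the most abundant of the 10 at 318.1 ± 48.8 CPM per kilobase (SD, n = 52). Aldoc followed at 283.7 ± 34.1 CPM per kilobase, and these 2 exchanged the first and second places between libraries. Slc1a3 (176.8 ± 23.7) and Atp1b2 (173.8 ± 14.3) exchanged the next 2 places in the same unit. Gja1 at 64.8 ± 7.74 and Ntsr2 at 51.6 ± 7.52 CPM per kilobase held the places after them. Aqp4 (25.4 ± 4.76), Gjb6 (25.0 ± 5.76) and Slc4a4 (20.3 ± 3.97) overlapped one another. Sox9, at 8.16 ± 1.37 CPM per kilobase, was last in all 52 libraries. Within families, Slc1a2 exceeded Slc1a3 by 1.79-fold per length (SD of the log2 ratio 0.191, n = 52) and Gja1 exceeded Gjb6 by 2.64-fold (SD of the log2 ratio 0.284). Against relatives that neurons also use, Aldoc stood at 0.484 of the per-length level of Aldoa, the general aldolase, and Atp1b2 at 0.258 of Atp1b1, the neuronal pump subunit. Slc1a1, the neuronal glutamate transporter, was at 39.8 ± 3.39 CPM per kilobase.

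Over the 8 groups the mean levels of each gene spanned a narrow range. The ratio of the highest to the lowest group mean CPM was smallest for Slc1a2 and Gja1 (1.15 for both) and largest for Ntsr2 (1.37). Slc1a2 ran from 3581 ± 500 CPM (SD, n = 7) in APP/E3 ND females to 4113 ± 906 (n = 6) in APP/E3 ND males. Slc1a3 ran from 718 ± 112 CPM in APP/E4 ND females (n = 7) to 876 ± 99.5 in APP/E4 HFD females (n = 7). These glutamate transporter groups overlapped, and the lowest Slc1a2 library, at 2501 CPM, was an APP/E4 ND male. Gja1 was lowest in APP/E4 ND females (202 ± 18.6 CPM, n = 7) and highest in APP/E3 ND males (232 ± 15.7, n = 6). Gjb6 was lowest in APP/E3 HFD males (46.2 ± 5.49 CPM, n = 6) and highest in APP/E3 ND females (60.8 ± 18.5, n = 7). The other connexin groups lay between these means, with ranges that ran into one another.

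Aqp4 ran from 137 ± 29.3 CPM in APP/E3 ND males to 168 ± 41.9 in APP/E4 HFD females. Atp1b2 ran from 448 ± 21.5 CPM in APP/E3 HFD males to 536 ± 34.4 in APP/E4 HFD females, and Slc4a4 from 179 ± 12.3 in APP/E3 ND females to 230 ± 36.5 in APP/E4 ND males. All the highest Atp1b2 means were those of the 4 female groups, from 499.6 to 536 CPM, against 448 to 480 CPM for the 4 male groups. Aldoc ran from 751 ± 54.7 CPM in APP/E4 ND males to 906 ± 111 in APP/E4 HFD females. Ntsr2 ran from 66.3 ± 3.59 CPM in APP/E3 HFD males to 90.7 ± 6.45 in APP/E3 ND females. Sox9 ran from 29.3 ± 2.70 CPM in APP/E4 HFD males (n = 5) to 36.7 ± 6.15 in APP/E3 ND females. For Slc1a2, Gja1, Gjb6, Aqp4 and Slc4a4 the largest SD within a group exceeded the distance between the highest and the lowest group mean.

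**Figure D1:**
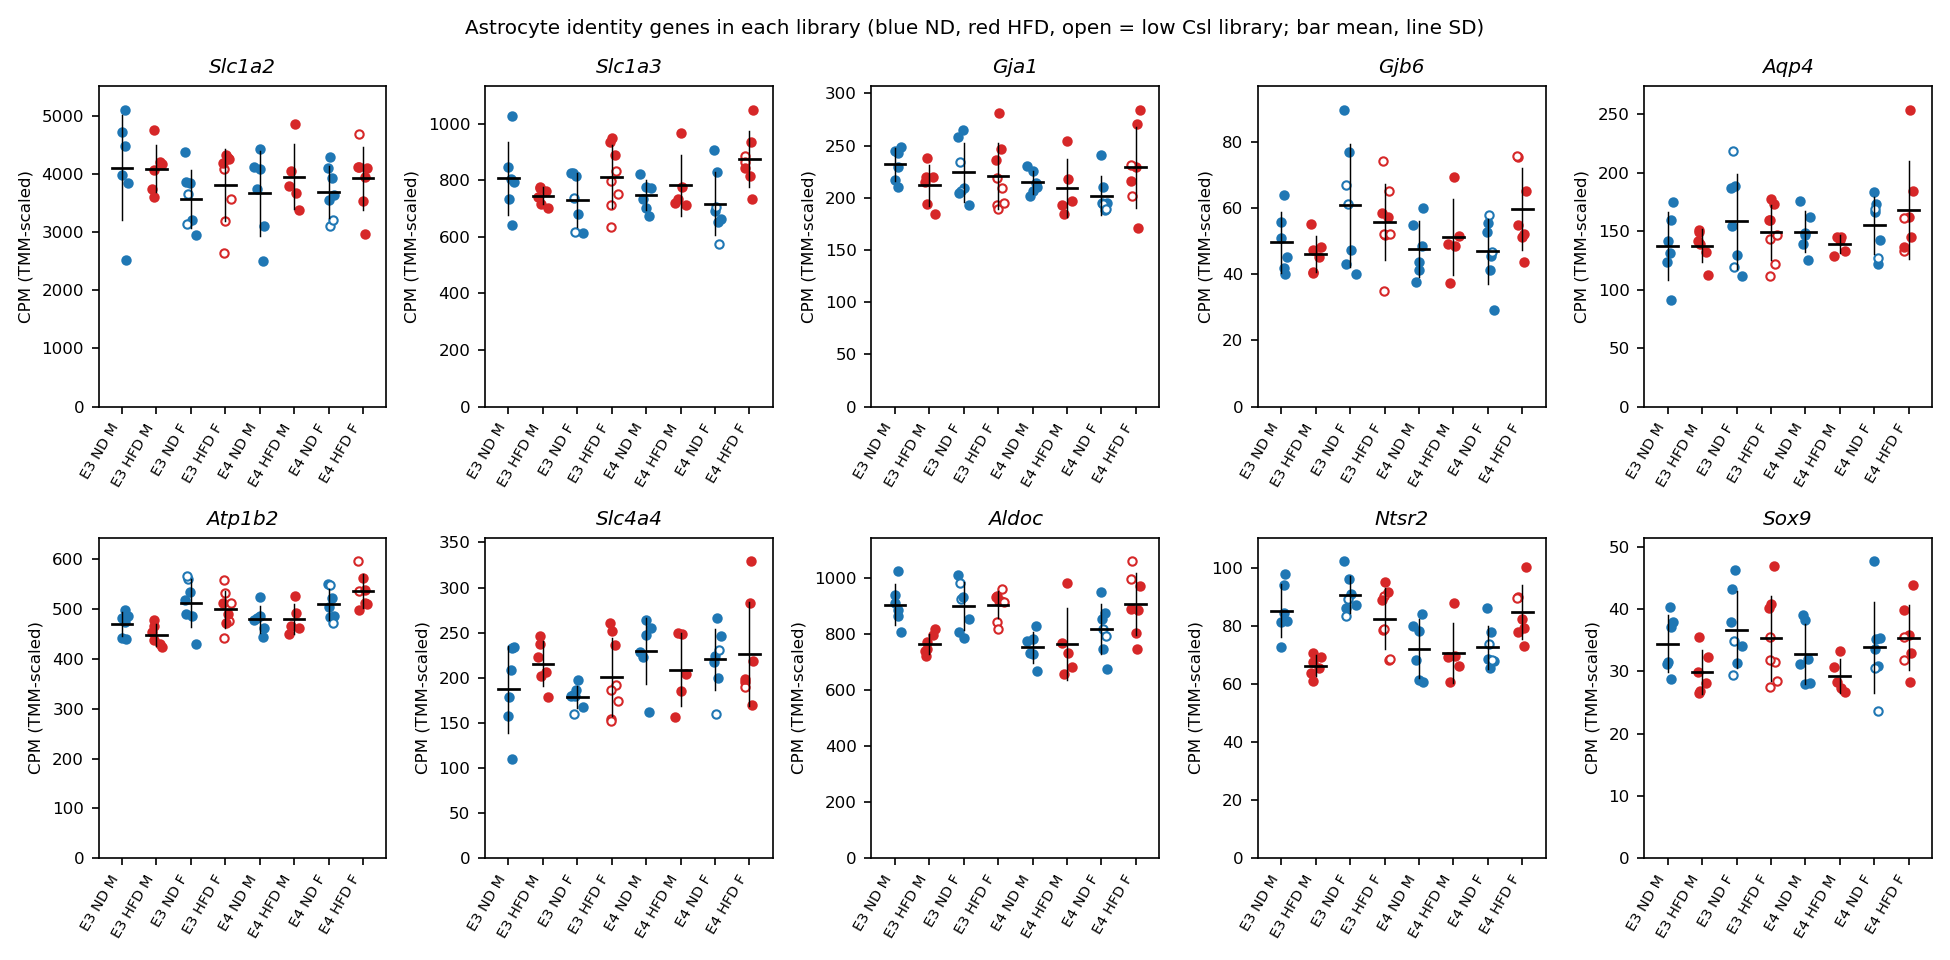
Level of each astrocyte identity gene in CPM (vertical axis, from 0) in every library of the 8 groups (horizontal axis; E3 and E4 are APP/E3 and APP/E4). Blue points are ND, red points HFD and open points low Csl libraries, with the group mean as a bar and the SD as a line; Ntsr2 in APP/E3 males is the case in which ND (72.5 to 97.7) and HFD (61.0 to 70.5) do not overlap.

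The first comparison asked whether HFD changed these genes in each genotype and gender. None of the 10 was called in any of the 4 combinations at an adjusted p under 0.05 by edgeR's quasi-likelihood test with Benjamini-Hochberg adjustment over all genes. DESeq2 and limma voom called none either. The background is just as low: HFD called 0% of all genes in APP/E3 males, 0.0263% in APP/E3 females (4 genes, all lower), 0% in APP/E4 males and 0% in APP/E4 females. At an unadjusted p under 0.05 the test passed 2 of the 10 genes in APP/E3 males, 0 in APP/E3 females, 0 in APP/E4 males and 5 in APP/E4 females. The same unadjusted threshold passed 13.6%, 4.69%, 3.65% and 7.9% of all genes in that order. The 2 combinations with such genes differed in sign, and both are described next.

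In APP/E3 males, 8 of the 10 genes had lower levels with HFD and 2 had higher levels, with a median log2 difference of -0.106 against -0.0122 over all genes. Ntsr2 differed most. It ran from 72.5 to 97.7 CPM (median 83.0) in the 6 ND males and from 61.0 to 70.5 CPM (median 66.5) in the 6 HFD males. The 2 sets of Ntsr2 values did not overlap, which was true of 1.76% of all genes in this comparison and of no other of the 10. Its log2 difference was -0.36 ± 0.09 (SE; unadjusted p = 0.000198, adjusted p = 0.164, edgeR). Across the alternative fits the lowest adjusted p for Ntsr2 was 0.0706, with DESeq2, and with any 1 library left out the lowest was 0.0776. A fit added after the data were seen left out the males whose titles lack the gender letter and kept all other libraries. It held 2 APP/E3 males on each diet, and there the Ntsr2 difference was -0.60 ± 0.15 (adjusted p = 0.131, edgeR).

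Aldoc ran from 805 to 1024 CPM (median 897) in ND and from 719 to 816 CPM (median 757) in HFD APP/E3 males. The highest HFD male lay just above the lowest ND male. The Aldoc log2 difference was -0.24 ± 0.08 (unadjusted p = 0.00444, adjusted p = 0.279, edgeR). The other 8 genes in APP/E3 males lay between -0.21 (Sox9) and 0.20 (Slc4a4), each with an interval that included 0. Of 26 further astrocyte identity genes, such as Aldh1l1 and S100b, 24 were lower and 2 higher in APP/E3 HFD males, 5 of them at an unadjusted p under 0.05 and none called, with a median of -0.134. Beside these values, all 7 microglial markers were lower (median -0.145; their sum ran from 484.2 to 577.5 CPM in ND and from 417.3 to 541.9 in HFD). All 8 oligodendrocyte markers were higher (median 0.217), and all 7 striatal markers were higher (median 0.416; median sum 932.1 CPM in ND, from 184.9 to 1908, and 1342 CPM in HFD, with the lowest at 566). None of those markers was called, and their part in the Ntsr2 and Aldoc values was not tested.

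In APP/E4 females, all 10 genes had higher levels with HFD in the fit of all libraries. Their median log2 difference was 0.134 against 0.0051 over all genes, of which 51.6% were positive. No gene had ND and HFD values that failed to overlap, as was the case for 0.0724% of all genes. The HFD response in APP/E4 females minus that in males ran from -0.02 (Slc1a2) to 0.25 (Ntsr2) over the 10 genes. With the low Csl libraries, all female, left out, it ran from -0.17 (Slc1a2) to 0.27 (Aqp4). The male response of Slc1a2 was 0.11 in the fit of all libraries. Its female response was therefore not positive once the low Csl libraries were left out. Slc1a3 ran from 576 to 906 CPM (median 692) in the 7 ND females and from 733 to 1050 CPM (median 864) in the 7 HFD females. Every HFD library lay above the ND median, and the 2 sets overlapped. Its log2 difference was 0.29 ± 0.09 (unadjusted p = 0.0038, adjusted p = 0.599, edgeR), and it stayed between 0.238 and 0.351 with any 1 library left out.

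Ntsr2, lower with HFD in APP/E3 males, ran the other way here, from 65.3 to 86.0 CPM (median 68.5) in ND and from 73.1 to 100.4 CPM (median 82.2) in HFD APP/E4 females. The Ntsr2 log2 difference was 0.22 ± 0.08 (unadjusted p = 0.0101, adjusted p = 0.599, edgeR). Gjb6 ran from 29.0 to 57.8 CPM (median 46.8) in ND and from 43.8 to 75.7 CPM (median 54.8) in HFD females, a log2 difference of 0.35 ± 0.16 (adjusted p = 0.618, edgeR). Gja1 ran from 188 to 241 CPM in ND and from 171 to 284 CPM in HFD females, so that the HFD group held both the lowest and the highest library. The Gja1 log2 difference was 0.18 ± 0.09 (adjusted p = 0.626, edgeR) and that of Aldoc 0.15 ± 0.08 (adjusted p = 0.631, edgeR). Aqp4 (0.12), Slc1a2 (0.09), Atp1b2 (0.07), Sox9 (0.07) and Slc4a4 (0.04) had smaller log2 differences in APP/E4 females with intervals that included 0. Of the 26 further identity genes, 24 were higher and 2 lower (median 0.163, 8 at an unadjusted p under 0.05, none called).

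Other cell markers moved beside the APP/E4 female values. All 7 microglial markers were higher with HFD (median log2 difference 0.233; sums 496.4 to 676.4 CPM in ND and 522.6 to 733.3 in HFD), and so were all 6 endothelial markers (median 0.194; sums 205 to 292.6 CPM in ND and 247.7 to 285 in HFD). All 8 oligodendrocyte markers were lower (median -0.145; sums 2428 to 7317 CPM in ND and 3058 to 4195 in HFD). The median of the oligodendrocyte sums, however, was 3440 CPM in ND and 3495 in HFD. All 7 striatal markers were lower (median -0.869; sums 238.4 to 1800 CPM in ND and 169.5 to 2032 in HFD). All 6 choroid plexus markers were higher (median 1.319; sums 10.4 to 105.1 CPM in ND and 10.2 to 705.2 in HFD). All 5 olfactory tissue markers were higher as well (median 1.328; sums 9.69 to 188.1 CPM in ND and 6.56 to 996.7 in HFD), although the median of their sums was 85.2 CPM in ND and 57.3 in HFD. None of them was called, and their part in the astrocyte gene values was not tested.

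In APP/E3 females, 4 of the 10 genes had higher and 6 lower levels with HFD (median log2 difference -0.029), from -0.14 ± 0.08 for Ntsr2 to 0.17 ± 0.14 for Slc4a4. These females hold most of the low Csl libraries. With those libraries left out or fitted as a term, the HFD difference of Slc4a4 went as high as 0.455, that of Sox9 moved from -0.06 to as high as 0.143 and that of Aqp4 from -0.09 to as high as 0.143. None was called in those fits. No gene had ND and HFD values that failed to overlap (background 0.0329%). In APP/E4 males, 5 genes had higher and 5 lower levels (median -0.015), from -0.17 ± 0.14 for Sox9 to 0.11 ± 0.14 for Slc1a2, again with no gene whose values failed to overlap (background 0.316%). There 1 library stood high. Ntsr2 in the 5 APP/E4 HFD males was at 69.5, 66.0, 87.9, 69.2 and 60.5 CPM, with replicate 3 the highest. Replicate 3 was also the highest of the 5 for Aldoc (980 CPM; the other 4 at 731, 682, 768 and 655) and for Slc1a3 (968 CPM; the other 4 at 775, 712, 720 and 736). Slc1a2, Gja1, Gjb6, Atp1b2 and Sox9 were highest there too, whereas Aqp4 and Slc4a4 were not. Without that library the HFD difference of Aldoc in APP/E4 males changed from 0.02 to -0.085, and that of Gjb6 from 0.10 to -0.035.

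**Figure D2:**
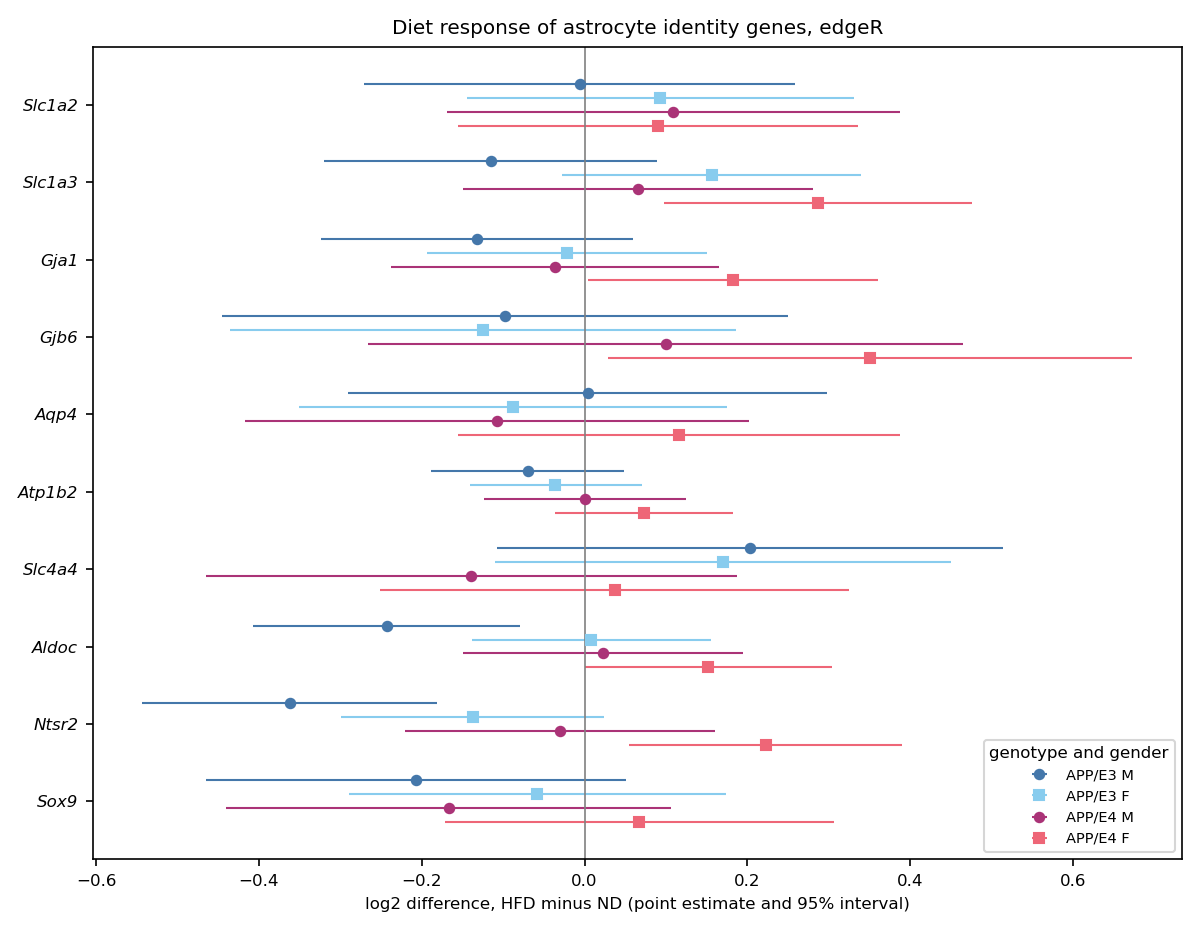
Log2 difference of HFD minus ND (horizontal axis) for each astrocyte identity gene (vertical axis) in males (circles) and females (squares) of APP/E3 (blue) and APP/E4 (red and purple), with the 95% interval from the edgeR fit. In this fit of all libraries, all 10 points lie above 0 in APP/E4 females and 8 of 10 lie below 0 in APP/E3 males. None passes the test after adjustment.

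The difference between these responses was tested directly. The diet by genotype interaction called none of the 10 genes in males (background 0% of all genes, 4.62% at an unadjusted p under 0.05) and none in females (background 0%, 6.07% unadjusted). The response of Ntsr2 was higher in APP/E4 than in APP/E3 by 0.36 ± 0.12 on the log2 scale in females (unadjusted p = 0.00308, adjusted p = 0.802, edgeR) and by 0.33 ± 0.13 in males (unadjusted p = 0.0143, adjusted p = 0.85, edgeR). The interaction of Gjb6 in females was 0.48 ± 0.22 (adjusted p = 0.802, edgeR) and that of Aldoc in males 0.27 ± 0.12 (adjusted p = 0.85, edgeR). For the median of the 10 genes the interaction was 0.105 in males and 0.137 in females, against 0.0046 and 0.0118 over all genes. The female values depended on how the low Csl libraries were handled. With low Csl fitted as a term, the female interaction was 0.34 ± 0.12 for Ntsr2 and 0.53 ± 0.22 for Gjb6. With those libraries left out, which kept 3 of the 8 APP/E3 HFD females, it was 0.18 ± 0.15 for Ntsr2 and 0.34 ± 0.28 for Gjb6. The 10 genes then ran from -0.40 (Slc4a4) to 0.34 (Gjb6) in females. The interaction and the diet comparisons use the same libraries, so they are not separate evidence. The diet by gender interaction also called none, in APP/E3 (background 0%, 5.39% unadjusted) or in APP/E4 (background 0%, 3.85% unadjusted). It passed an unadjusted p under 0.05 for 1 gene in APP/E3, Aldoc, at 0.25 ± 0.11 (unadjusted p = 0.0258, adjusted p = 0.876, edgeR), and for 0 in APP/E4.

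Averaged over genotype and gender, the HFD differences of the 10 genes were small, from -0.09 ± 0.06 for Sox9 to 0.10 ± 0.05 for Slc1a3 on the log2 scale. None was called (background 0%), and 0 of 10 passed an unadjusted p under 0.05, against 9.2% of all genes. The 95% interval of the averaged difference was -0.065 to 0.049 for Atp1b2 and -0.094 to 0.064 for Aldoc. The authors' deposited table holds a diet coefficient of its own for each gene. In the authors' deposited table the coefficient was -0.11 (p = 0.0292) for Slc1a3, and the p-values of the other 9 genes ran from 0.227 for Slc1a2 upward. Over 15195 genes the coefficients of the authors' deposited table and the averaged differences computed here had a Pearson's r of -0.873 across genes, so the sign there counts ND minus HFD.

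Females and males differed at 3 of the 10 genes, all higher in females. Atp1b2, the pump subunit, was at 513.9 ± 38.5 CPM in females (SD, n = 29; lowest 430, median 512.6, highest 596.3) and at 469 ± 27.3 CPM in males (n = 23; lowest 423.1, median 466.5, highest 526.2). The female median lay above all but the highest males, and the ranges overlapped. Its log2 difference of females minus males, averaged over the 4 genotype and diet combinations, was 0.13 ± 0.03 (adjusted p = 0.00306, edgeR). Ntsr2 was at 82.6 ± 10.4 CPM in females (65.3 to 102.2, median 83.4) and 73.7 ± 10.9 CPM in males (60.5 to 97.7, median 69.5), a log2 difference of 0.17 ± 0.04 (adjusted p = 0.0163, edgeR). Aldoc was at 882 ± 89.3 CPM in females (675 to 1059, median 888) and 797 ± 97.6 CPM in males (655 to 1024, median 774), a log2 difference of 0.15 ± 0.04 (adjusted p = 0.0187, edgeR). Gender called 4.42% of all genes (442 higher and 229 lower in females). DESeq2, limma voom and each of the 52 fits with 1 library left out called the same 3 genes.

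The remaining 7 genes were not called between genders. Sox9 (0.16 ± 0.06, adjusted p = 0.134, edgeR), Gjb6 (0.19 ± 0.08, adjusted p = 0.187, edgeR) and Aqp4 (0.16 ± 0.07, adjusted p = 0.197, edgeR) had log2 differences as large as the called genes with larger errors. Slc1a2 (-0.08), Slc4a4 (-0.03), Slc1a3 (0.02) and Gja1 (0.01) lay close to 0. The 95% interval for Gja1 ran from -0.080 to 0.107 and that for Slc1a3 from -0.078 to 0.121. For Slc1a2, Slc1a3, Gja1 and Slc4a4 no gender difference was detectable in this fit with this number of animals. The value of Slc4a4 depended on the library classes. With title style and low Csl both fitted as terms, it was at 0.25 ± 0.10 and not called (adjusted p = 0.279, edgeR). Slc1a2 (0.03), Slc1a3 (0.07) and Gja1 (0.06) changed less there.

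Title style and the low Csl split both bear on the gender result. With title style as a term, 0 of the 10 genes were called (background 0.118%), and with both terms 0 were called (background 0.211%). With the 14 males whose titles lack the letter left out, 0 were called (background 0.0908%). In that fit Atp1b2 was at a log2 difference of 0.16 ± 0.04 (adjusted p = 0.336, edgeR), while Ntsr2 was at 0.07 ± 0.06 and Aldoc at 0.08 ± 0.06. Medians were taken in the 4 classes that gender, Csl and title style make. Atp1b2 was at 536 CPM in low Csl females, 507 in the other females, 451 in lettered males and 476 in males without the letter. Ntsr2 was at 78.8, 86.1, 79.9 and 69.4 CPM and Aldoc at 922.5, 878.7, 795 and 754 CPM in these 4 classes. For Ntsr2 the median of the lettered males lay between those of the 2 female classes, and for Atp1b2 both male medians lay below both female medians. Since no female title lacks the letter, gender and title style can be told apart only through the 9 lettered males.

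With a low Csl term, 3 of the 10 genes were called as well, with a background of 4.31%, but not the same 3. Ntsr2 (0.20 ± 0.05, adjusted p = 0.0114, edgeR) and Atp1b2 (0.10 ± 0.03, adjusted p = 0.0481, edgeR) were called again. Sox9 was called at 0.28 ± 0.06 (adjusted p = 0.0049, edgeR), and Aldoc was not (0.12 ± 0.04, adjusted p = 0.095, edgeR). Leaving the 11 libraries out also called Ntsr2, Atp1b2 and Sox9 (background 5.18%). Sox9 had a median of 31.5 CPM in low Csl females, 36.8 in other females, 30.8 in lettered males and 31.3 in males without the letter. The low Csl females thus lay at the level of the males for Sox9.

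Compared directly with the remaining libraries in a fit with the 8 groups, low Csl libraries differed at 3 of the 10 genes, all lower, with a background of 22.8% of all genes called. Sox9 was lower by a log2 difference of -0.32 ± 0.08 (adjusted p = 0.00152, edgeR), Slc4a4 by -0.32 ± 0.10 (adjusted p = 0.0145, edgeR) and Slc1a3 by -0.18 ± 0.07 (adjusted p = 0.0413, edgeR). Slc4a4 ran from 151.7 to 230.2 CPM (median 180) in low Csl females and from 167 to 329 CPM (median 218) in the other females. Aldoc (0.07), Atp1b2 (0.08) and Gjb6 (0.20) were on the other side of 0 and were not called. Striatal markers in these libraries summed to a median of 323.5 CPM (169.5 to 1625) against 1211 CPM (175 to 2472) in the other 41, and their part in these differences was not tested. Males without a title letter differed from the rest at none of the 10 genes (background 3.36%), with Ntsr2 at -0.16 ± 0.06 (adjusted p = 0.126, edgeR) and Slc4a4 at 0.27 ± 0.11 (adjusted p = 0.151, edgeR).

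**Figure D3:**
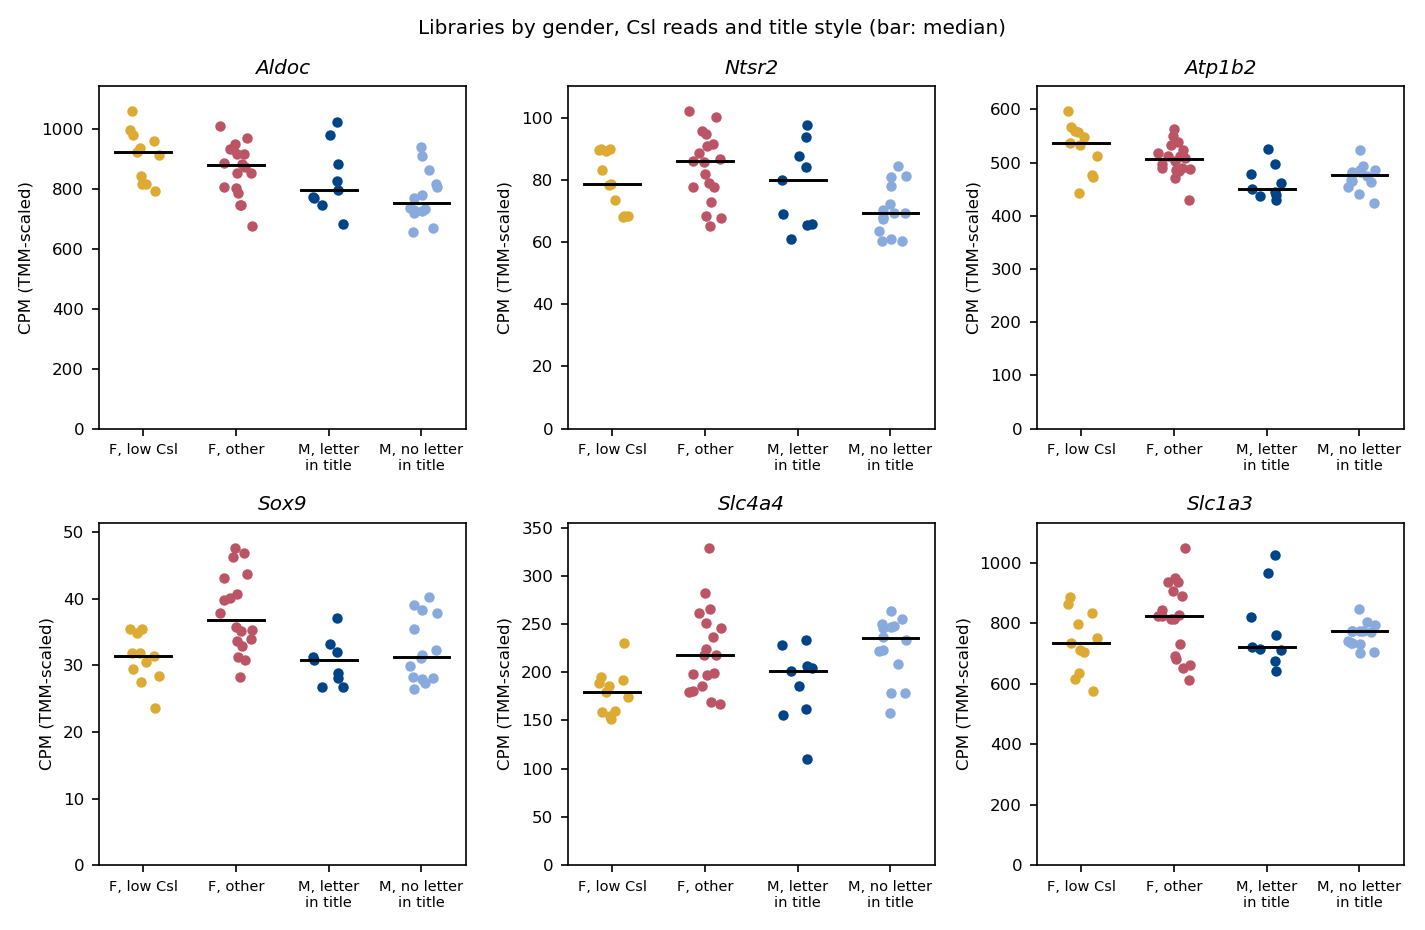
Levels in CPM (vertical axis, from 0) of 6 astrocyte identity genes in low Csl females (11 libraries), other females (18), males with a gender letter in the title (9) and males without it (14), each point a library and each bar a median. Low Csl females sit lower than other females for Sox9 (medians 31.5 and 36.8) and Slc4a4 (180 and 218), and both male medians sit below both female medians for Atp1b2.

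Other genes of the same pathways were compared between genders in the same fit. Over all lists, markers of other cells included, 18 of 193 tested genes (9.33%) were called between genders, against a background of 4.42%. Only 1 of these 18, Gfap, was also called with title style as a term (background 0.118%), with both terms (0.211%) and with the males without a title letter left out (0.0908%). With the low Csl term alone 11 of the 18 were called (background 4.31%). Of the 26 further astrocyte identity genes, 25 were higher in females (median log2 difference 0.097 against 0.0027 over all genes) and 2 were called, S100b, a calcium-binding protein (0.21 ± 0.04, adjusted p = 0.000553, edgeR), and Gpr37l1, a receptor of astrocytes (0.16 ± 0.04, adjusted p = 0.0111, edgeR). Aldh1l1, a folate enzyme used as an astrocyte marker, was at 0.18 ± 0.06 and was not called (adjusted p = 0.0534, edgeR), nor was Glul, glutamine synthetase (0.10 ± 0.04, adjusted p = 0.175, edgeR). In the list of water, potassium and pH handling (20 genes) 1 was called, Kcnj10, the inward potassium channel of astrocytes, higher in females at 0.24 ± 0.06 (adjusted p = 0.0129, edgeR). Atp1b1, the other pump subunit, was at -0.02 ± 0.04. Among 15 genes of glutamate and glutamine handling, Glud1, glutamate dehydrogenase, was called higher (0.11 ± 0.03, adjusted p = 0.0168, edgeR), and Slc1a1 was at -0.08 ± 0.03 (adjusted p = 0.137, edgeR). With the title term S100b was at 0.19 ± 0.05 (adjusted p = 0.196, edgeR), Gpr37l1 at 0.12 ± 0.05 (adjusted p = 0.512, edgeR), Kcnj10 at 0.26 ± 0.08 (adjusted p = 0.287, edgeR) and Glud1 at 0.12 ± 0.04 (adjusted p = 0.327, edgeR), none of them called. With the low Csl term S100b, Gpr37l1 and Kcnj10 were called and Glud1 was not (adjusted p = 0.0512, edgeR).

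Among 22 genes of glycolysis and lactate, 1 was called higher in females and 2 lower: Pkm (0.23), Pgam1 (-0.40) and Pgk1 (-0.49). Aldoa, the relative of Aldoc, was at 0.08 ± 0.04 and was not called. Of 20 astrocyte transcription factors, 1 was called higher (Id3, 0.28) and 2 lower (Nfia, -0.24, and Nfib, -0.15). None of 10 other connexin and junction genes and none of 4 neurotensin system genes was called. Of 16 tested reactive astrocyte genes, Gfap, the intermediate filament of reactive astrocytes, was called higher in females at 0.71 ± 0.11 (adjusted p = 1.86e-05, edgeR), Cxcl10 higher at 1.23 and Lcn2 lower at -1.15. With the title term Gfap was at 0.77 ± 0.15 (adjusted p = 0.00902, edgeR), with both terms at 0.68 ± 0.16 (adjusted p = 0.0455, edgeR) and with the males without a title letter left out at 0.78 ± 0.16 (adjusted p = 0.0431, edgeR). With the low Csl term Pkm (0.0028), Pgam1 (-0.24), Pgk1 (-0.14), Nfia (-0.13), Nfib (-0.12) and Lcn2 (-0.68) were not called. Beside these, all 7 microglial markers were higher in females and the calls included Tyrobp (0.43) and C1qa (0.32), with sums of 436.7 to 733.3 CPM in females and 417.3 to 696.5 in males. All 7 striatal markers were lower (median -0.344, none called). Of 6 choroid plexus markers, 2 were called higher, Ttr (3.35) and Kcnj13 (1.07), with sums of 10.2 to 2595 CPM in females and 11.3 to 57.7 in males. None of the microglial and choroid plexus calls held with the title term. The part of these cells and tissues in the gender differences of Atp1b2, Ntsr2 and Aldoc was not tested.

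Between genotypes, averaged over diet and gender, none of the 10 genes was called (background 6.79% of all genes, 515 higher and 517 lower in APP/E4), and DESeq2 and limma voom called none. An unadjusted p under 0.05 was passed by 3 of 10 and by 21.3% of all genes. Aldoc was at 871 ± 84.4 CPM in APP/E3 (n = 27) and 815 ± 111 CPM in APP/E4 (n = 25), a log2 difference of -0.10 ± 0.04 (adjusted p = 0.113, edgeR). Ntsr2 was at 81.6 ± 11.7 and 75.4 ± 10.4 CPM, a difference of -0.11 ± 0.04 (adjusted p = 0.127, edgeR). Slc4a4 was at 195 ± 36.0 and 222 ± 41.6 CPM and pointed the other way, at 0.18 ± 0.07 (adjusted p = 0.135, edgeR). The ranges of all 3 overlapped widely between genotypes. Ntsr2 was called lower in APP/E4 with low Csl and title terms (-0.13 ± 0.04, adjusted p = 0.0381, edgeR; background 11.1%) and with the low Csl libraries left out (-0.16 ± 0.05, adjusted p = 0.0378, edgeR; background 6.98%). Aldoc was called lower when replicate 3 of the APP/E4 HFD males was left out (-0.13 ± 0.04, adjusted p = 0.0268, edgeR). That library was the highest of its group for Aldoc. Ntsr2 was not called in that fit (-0.13 ± 0.04, adjusted p = 0.0513, edgeR). The share of all genes called there is not reported here, so the Aldoc call cannot be set against a background.

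Other astrocyte lists were compared between genotypes in the same fit. Of 26 further identity genes 0 were called between genotypes, 2 at an unadjusted p under 0.05, with a median log2 difference of -0.012. Of 16 reactive astrocyte genes, 3 were called higher in APP/E4, Serpina3n, a secreted protease inhibitor (2.31 ± 0.12, adjusted p = 5.4e-20, edgeR), Gfap (0.35 ± 0.10, adjusted p = 0.0298, edgeR) and Osmr (0.33 ± 0.10, adjusted p = 0.03, edgeR). The reactive genes B3gnt5 (-0.51) and Cd44 (-0.48) were called lower. In the list of water, potassium and pH handling, Slc12a2, a chloride cotransporter (0.25), and Car2, a carbonic anhydrase (0.18), were called higher. Kcnj10 (0.12 ± 0.06), S100b (0.02 ± 0.04), Aldh1l1 (-0.04 ± 0.06) and Glul (0.01 ± 0.04) were not. Among markers of other cells, Mag (0.38) and Ermn (0.35) of oligodendrocytes were called higher in APP/E4, and their part in the values of the 10 genes was not tested. Over all lists 10 of 193 tested genes (5.18%) were called between genotypes, against the background of 6.79%. With the low Csl term 9 of these 10 were called (background 8.79%) and with the title term all 10 (8.71%). With the low Csl libraries left out 5 of the 10 were called (6.98%), which were Serpina3n, Gfap, Cd44, Slc12a2 and Mag. With the males without a title letter left out 1 was called (0.752%), Serpina3n (2.33 ± 0.18, adjusted p = 1.37e-10, edgeR).

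Within groups, the 10 genes varied together to different degrees. Deviations of log2 CPM from the group mean were compared over the 52 libraries, which share their library and its depth across genes, so the correlations are a description. Of the 45 pairs, 41 were positive, 10 had a Pearson's r above 0.5 and the median r was 0.361. The closest pair was Slc1a3 with Gja1 (r = 0.774, Spearman's rho = 0.79). Aqp4 followed Gja1 (r = 0.68) and Slc1a3 (r = 0.673), and Slc1a2 followed Slc1a3 (r = 0.65). Slc1a3 was the common partner of these genes, since Slc1a2 had lower values with Gja1 (r = 0.34) and Aqp4 (r = 0.28). Aldoc was closest to Gjb6 (r = 0.68, rho = 0.708) and then to Ntsr2 (r = 0.535). Slc4a4 followed Aqp4 (r = 0.563) and ran against Aldoc (r = -0.331, and -0.425 without the low Csl libraries).

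Slc1a3 was the gene most like the rest, with r = 0.878 against the mean of the other 9. Gja1 had r = 0.775 on that measure, and Slc4a4 was lowest at 0.333, with Ntsr2 at 0.339 and Aldoc at 0.397. The spread within groups also differed by gene. The SD of the deviations was 0.096 on the log2 scale for Atp1b2, 0.14 for Aldoc and 0.158 for Ntsr2, the lowest 3 of the 10 and the 3 genes called between genders, and up to 0.311 for Gjb6. The 2 connexin genes shared part of their variation (Gja1 with Gjb6, r = 0.45), and the 2 glutamate transporters had r = 0.65.

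**Figure D4:**
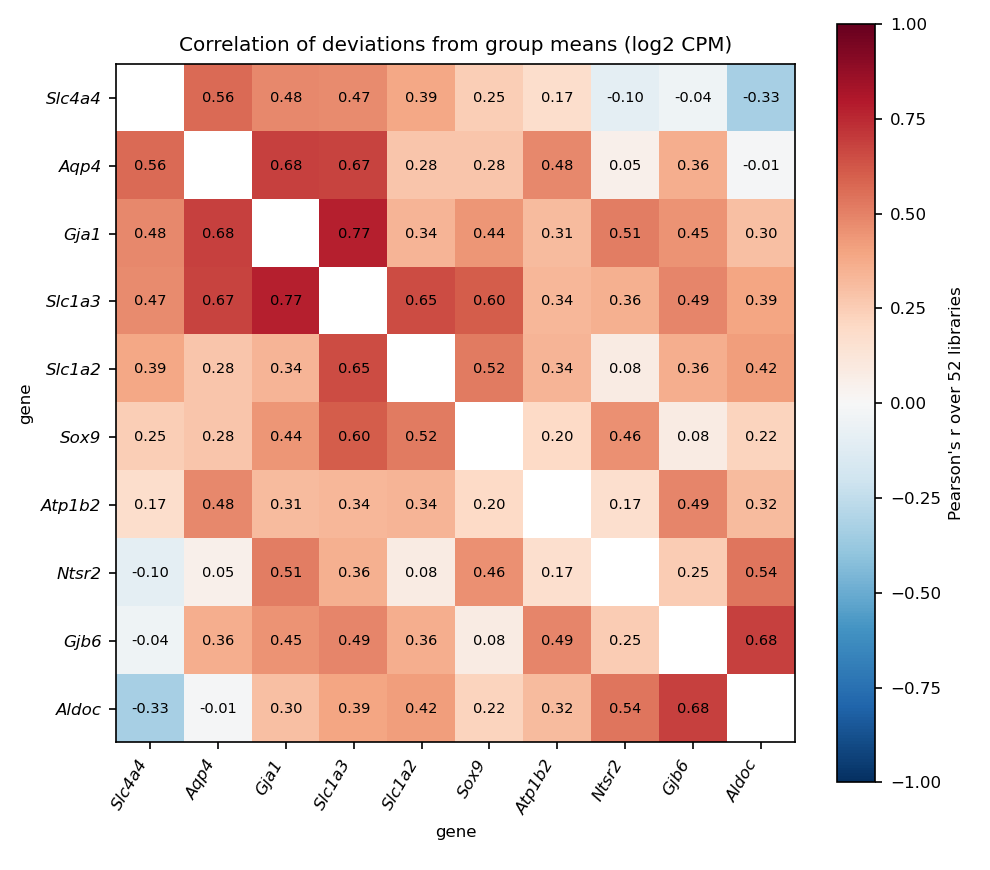
Pearson's r between deviations of log2 CPM from group means over 52 libraries for each pair of astrocyte identity genes (both axes), from blue (negative) to red (positive). Slc1a3, Gja1 and Aqp4 form the darkest block, Aldoc and Gjb6 a second one, and Aldoc with Slc4a4 is the lowest value at -0.331.

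The genes whose deviations were most like the mean of the 10 were sought over all 15195 genes, where the median r was 0.005 and 4.71% exceeded 0.5. Among the closest over the same 52 libraries were Pdlim5 (r = 0.854), Plxnb1 (0.841), Pcdhgc3 (0.836), Nwd1 (0.835), Nadk2 (0.823), Epas1 (0.82), Sfxn5 (0.819), Pygb (0.817) and Plpp3 (0.817). The most opposite genes were Atp6v1h (-0.821), Mdh1 (-0.807) and Uqcrc2 (-0.802), which encode parts of the vacuolar proton pump, the malate shuttle and the respiratory chain. The average deviation of 26 further identity genes had r = 0.793 with the mean of the 10. Endothelial markers (r = 0.805, 6 genes) were as close, reactive astrocyte genes lay at 0.722, microglial markers at 0.464 and neuronal markers at -0.361.

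Markers of other cells and tissues related differently to the individual genes. The mean deviation of 7 striatal markers had r = -0.583 with Gjb6, -0.511 with Aldoc and -0.313 with Atp1b2, but 0.51 with Slc4a4 and 0 with Gja1. Neuronal markers gave the same order for Gjb6, Aldoc and Slc4a4, with r = -0.576 for Gjb6, -0.537 for Aldoc and 0.352 for Slc4a4. Microglial markers had r = 0.662 with Aldoc and 0.051 with Aqp4. Endothelial markers were closest to Slc1a3 (r = 0.779) and Slc1a2 (0.671) and least close to Atp1b2 (0.201). Reactive astrocyte genes were closest to Aqp4 (r = 0.705) and Gja1 (0.697) and least close to Slc1a2 (0.205). How much of each astrocyte gene's variation came with the dissected tissue was not tested.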

How the data were processed

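The authors deposited raw read counts per gene for 52 libraries, and, from their own diet comparison, a log2 coefficient with its raw p-value per gene, per the file headers. The submitters' processing notes name Subread, featureCounts, limma, edgeR 3.14.0 and build mm9. Neither annotation nor strand setting is given in the sources used here. Overlapping or antisense genes could share reads.

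Counts of 15195 genes (497 removed by filterByExpr) were fitted with edgeR 4.0.16 in R 4.3.3 (robust quasi-likelihood, TMM, 1 mean for each of 8 groups, all 52 libraries). Benjamini-Hochberg adjustment ran over all genes of a contrast, with calls at an adjusted p under 0.05. Log2 CPM carry a prior count of 2. Intervals are 95% and use the model's degrees of freedom. Alternatives were DESeq2 1.42.0, limma voom 3.58.1, relative log expression factors, no filter, the 2 groups alone, terms for low Csl (under 2 CPM) and title style, leaving out low Csl libraries, and leaving out each library in turn. The fit without unlettered males was added after the data were seen. The edgeR fit was tested on simulated data. Exon lengths came from GENCODE M21 (GRCm38), another build than that of the counts.

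The 10 genes and all lists were chosen with earlier results of these data known. The text names all 10 genes, the called genes of each list (up to 4 per contrast by smallest p), 8 relatives and astrocyte markers, and, of the 10 other genes most like the mean of the 10, all but 1. Some genes that this rule names are not reported here. Replicate numbers follow deposit order and pair nothing. Each animal gave 1 library, and the tests set differences between groups against the spread between animals and their libraries.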

Additional observations from a re-analysis of the deposited data

Results flagged for a closer look

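Among 80 sets of 1 gene in 1 group, 2 held a library far from the others, and chance puts about 1 in 20 sets there. Slc1a3 in APP/E4 HFD males had its highest library, replicate 3, at 967.7 CPM with the nearest at 775.4. Slc4a4 in APP/E4 ND males had its lowest library, replicate 6, at 162.4 CPM with the nearest at 223.3.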

How the results depend on the processing

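The number of the 10 genes called stayed at 0 in every alternative for the 5 diet contrasts and the 4 interactions. Between genders it was 3, and 3 in each fit with 1 library left out, but 0 with a title term, 0 with low Csl and title terms and 0 with unlettered males left out. Between genotypes it was 0, ranged from 0 to 1 with 1 library left out, and was 1 with low Csl and title terms and 1 with low Csl libraries left out. The cause of these changes was not tested. No log2 difference of Aldoc, Ntsr2 or Atp1b2 between genders changed sign. No paired analysis was possible because the labels give no replicate numbers that groups share. Sox9 and Gjb6 had the fewest counts of the 10, with medians of 305 and 461.5 per library. How far depth limits them was not tested.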
